A study of Bos indicus and Bos indicus x Bos taurus and Bos taurus with 6 samples.

Results

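The 10 genes described here are subunits of the transcription factor AP-1 and other immediate early genes. They are FOS, FOSB, FOSL2, JUN, JUNB, JUND, ATF3, EGR1, DUSP1 and IER2. They were taken by gene symbol from the deposited count table, where all 10 are present among 21698 genes, and all 10 had enough counts to be tested. The RNA came from whole blood drawn from the jugular vein of cows on a university farm in Malaysia, at a temperature-humidity index of 44.68 that all samples share. Kedah-Kelantan, an indigenous tropical breed that the labels call heat-tolerant, had 2 libraries. Brangus, a composite breed called intermediate, had 2, and Holstein Friesian, a temperate breed called heat-vulnerable, had 2. All animals were healthy adult females, neither pregnant nor lactating, aged 4.5 ± 1.2 years on average and weighing 450 ± 15 kg. The labels call the 2 libraries of a breed biological replicates, while the design text gives 4 animals per breed, and how the 2 statements relate is not known here. The labels describe every sample as whole blood under heat stress. No sample is labelled as taken without it, so every comparison is between breeds.

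Immediate early genes are switched on within minutes of a signal, from factors already present in the cell and without new protein synthesis. Their transcripts are short-lived, so their level at one moment follows recent signalling through MAP kinases, serum response factor and CREB. FOS and JUN family proteins pair through leucine zippers to form AP-1, which binds DNA and drives later genes, while DUSP1 removes phosphate from the kinases and closes the loop. In blood these genes respond to infection, adrenaline, glucocorticoids, stress and handling of the sample, and myeloid cells carry many of the AP-1 transcripts.

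Total counts per library were 25275377 to 28668857. Values below are counts scaled to a fixed library size (CPM) on effective library sizes, or, where genes are compared with each other, the authors' FPKM, which also divides by gene length. Replicates were close in Kedah-Kelantan and Brangus, where the median absolute log2 difference between replicates over 13455 tested genes was 0.16 and 0.25, against 0.61 in Holstein Friesian. The Holstein Friesian pair did not share one blood cell profile. Summed over 12 neutrophil markers, replicate 2 had 8505 CPM and replicate 1 had 1004 CPM. Over 11 monocyte markers the sums were 7549 and 865 CPM, and over the 7 of 12 eosinophil, basophil and mast cell markers found in the table they were 1290 and 33.7 CPM. B and plasma cell markers went the other way, at 244 CPM in replicate 2 and 3329 CPM in replicate 1 (10 markers). T cell markers, at 2156 to 2713 CPM over 11 genes, and platelet markers were present in all 6 libraries, as blood should show. Of the 10 erythroid markers, CA1 was at 0 in all 6 libraries and HBM, SLC4A1, AHSP and EPB42 were among those at 0 in 1 or more. Of the neutrophil markers, CAMP was at 0 in all but Kedah-Kelantan replicate 1, and LTF in both Brangus libraries. In bulk blood, fewer cells of a type and less RNA per cell cannot be told apart.

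**Figure D1:**
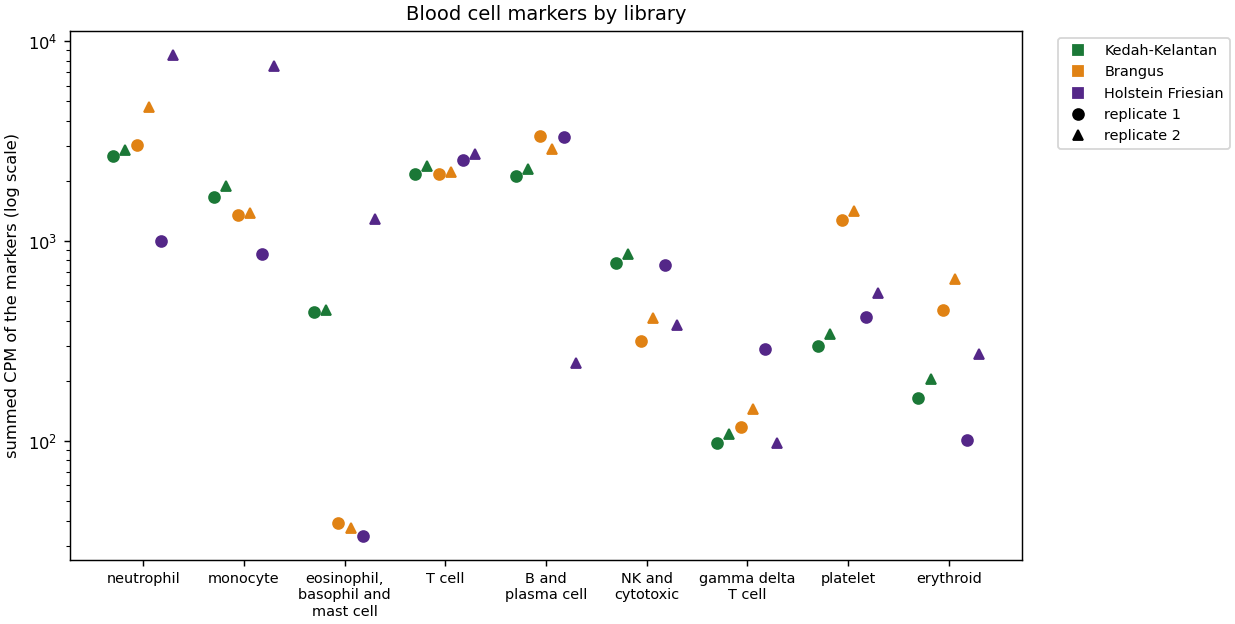
Summed CPM of each blood cell marker list (log axis) in each library, coloured by breed, with circles for replicate 1 and triangles for replicate 2. The Kedah-Kelantan and Brangus pairs lie close together, while Holstein Friesian replicate 2 is at 8505 CPM for neutrophil markers and 244 CPM for B and plasma cell markers, against 1004 and 3329 CPM in replicate 1.

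Per length, JUNB and IER2 were the 2 most abundant of the 10 transcripts by the mean of every breed. In Holstein Friesian replicate 2, DUSP1 (115 FPKM) was above IER2 (94.8 FPKM). JUNB, a JUN family subunit that often restrains JUN itself, averaged 104 ± 11.9 FPKM in Kedah-Kelantan, 84.7 ± 10.4 FPKM in Brangus and 100.4 ± 67.2 FPKM in Holstein Friesian (SD, n = 2 each). IER2, a nuclear early response protein, averaged 90.7 ± 7.25, 106 ± 0.636 and 114 ± 27.6 FPKM in the same 3 breeds. The 2 genes exchanged first place between breeds. JUNB was above IER2 in both Kedah-Kelantan libraries (95.2 against 85.6 FPKM and 112 against 95.8 FPKM). IER2 was above JUNB in both Brangus libraries (106 against 77.4 FPKM and 105 against 92.1 FPKM). The Holstein Friesian libraries split, with IER2 above JUNB in replicate 1 and JUNB above IER2 in replicate 2. At the low end stood FOSB at 2.23 ± 0.424 FPKM in Kedah-Kelantan and 0.175 ± 0.0919 in Brangus, and ATF3 at 0.715 ± 0.0212 and 0.865 ± 0.0636 FPKM. In Holstein Friesian FOSB averaged 1.07 ± 0.382 and ATF3 1.02 ± 0.884 FPKM. The low place of ATF3 depends on the length that its FPKM imply, 8152 bases, against 2152 for EGR1. By mean CPM, ATF3 was above EGR1 in Brangus (7.70 against 3.35) and below it in Kedah-Kelantan (5.29 against 9.88). The breed order of the middle ranks differed. FOS was the sixth gene in Kedah-Kelantan at 32.9 ± 5.44 FPKM, level with JUN at 33.6 ± 1.97, whereas in Brangus FOS averaged 3.45 ± 2.21 FPKM and JUN 48.7 ± 12 FPKM.

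The make-up of the AP-1 pool was therefore uneven between breeds. The 3 FOS family genes measured here made up 19.8% and 19.4% of the summed FPKM of the 6 AP-1 subunits in Kedah-Kelantan. Their share was 6.45% and 8.76% for Brangus, and for Holstein Friesian it was 7.13% and 14.8%, replicate 1 first. Both Kedah-Kelantan libraries were above all 4 others. Within the FOS family the ratio of FOS to FOSL2 by FPKM was 2.34 and 3.16 in Kedah-Kelantan. It was 0.212 and 0.359 for Brangus, and for Holstein Friesian 0.359 and 0.560. Per length, FOS was thus the more abundant of the pair in both Kedah-Kelantan libraries, and FOSL2 in the other 4. This order depends on the lengths that the FPKM imply, 2093 bases for FOS and 6321 for FOSL2. By counts, FOSL2 was above FOS in Kedah-Kelantan replicate 1 (2184 against 1695) and just below it in replicate 2 (2069 against 2166). JUNB took a near constant share, 42.3% to 45.9% in the 6 libraries. The sum over all 6 subunits was 222 and 259 FPKM in Kedah-Kelantan and 171 and 218 FPKM in Brangus. It was 120.1 and 322 FPKM in replicates 1 and 2 of Holstein Friesian, the lowest and the highest of the study. These sums scale to total counts, so they show no difference in level between Kedah-Kelantan and Brangus. JUNB, the largest part, averaged 104 and 84.7 FPKM in these 2 breeds, but 171 and 168 CPM. FOSL1, the remaining FOS family gene, was at 0 to 0.076 CPM and was not tested.

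**Figure D2:**
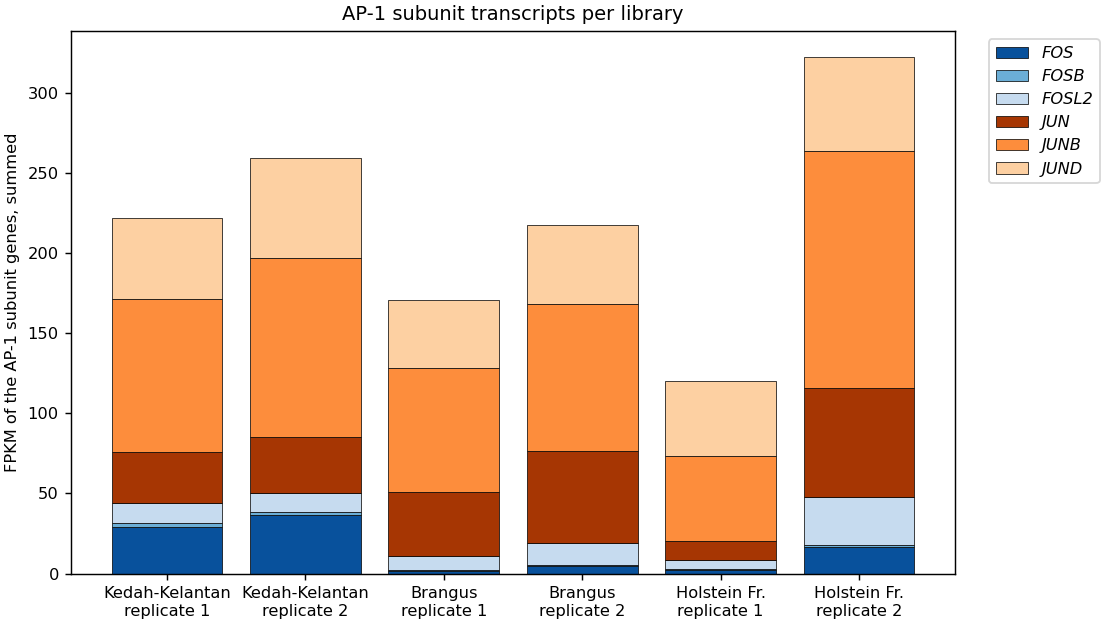
Deposited FPKM of the 6 AP-1 subunit genes, stacked for each of the 6 libraries, with FOS family genes in blue and JUN family genes in orange. Bar heights scale to total counts and not to effective library sizes. FOS family genes make up 19.8% and 19.4% of the Kedah-Kelantan bars, 6.45% and 8.76% of the Brangus bars, and 7.13% and 14.8% of the Holstein Friesian bars.

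FOS, the classical partner of JUN, lies on chromosome 10 (86488949 to 86492375, plus strand, in the authors' table, as are all positions here). It had 54.6 and 70.4 CPM in Kedah-Kelantan, 4.28 and 11.5 CPM in Brangus, and 4.13 and 37.3 CPM in Holstein Friesian, replicate 1 first. Both Kedah-Kelantan libraries were above every other library, and the Brangus and Holstein Friesian ranges overlapped. The highest library was 17.1 times the lowest. FOSB (chromosome 18, 53074358 to 53081311, plus strand), a close relative of FOS that can also be made as a long-lived short form, had 8.56 and 6.66 CPM in Kedah-Kelantan, 0.985 and 0.473 CPM in Brangus, and 2.89 and 5.40 CPM in Holstein Friesian. It was the only one of the 10 genes whose 3 breeds did not overlap anywhere, in the order Kedah-Kelantan, Holstein Friesian, Brangus. The share of all genes whose 3 breeds stand apart was not counted. Between Kedah-Kelantan and Brangus alone, 33.5% of all genes were higher and 30.7% lower without overlap. The Brangus values rest on 23 and 11 counts. FOSL2 (chromosome 11, 71337128 to 71360069, minus strand), which encodes FRA-2, a subunit with no strong activation domain, had 70.3 and 67.2 CPM in Kedah-Kelantan, 60.9 and 96.5 CPM in Brangus, and 34.7 and 201 CPM in Holstein Friesian. All 3 breeds overlapped. Both Kedah-Kelantan libraries lay inside the Brangus range, and the Holstein Friesian libraries were the lowest and the highest of the 6.

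JUN (chromosome 3, 87265962 to 87268009, plus strand), the main activating JUN subunit and a target of JNK, had 56.4 and 62.5 CPM in Kedah-Kelantan, 84.9 and 122 CPM in Brangus, and 22.6 and 142 CPM in Holstein Friesian. Kedah-Kelantan was below Brangus without overlap, and Holstein Friesian spanned both. JUNB (chromosome 7, 12736074 to 12737893, minus strand) had 156 and 187 CPM in Kedah-Kelantan, 152 and 183 CPM in Brangus, and 92.7 and 288 CPM in Holstein Friesian. The Kedah-Kelantan and Brangus libraries were interleaved. JUND (chromosome 7, 4912209 to 4913961, plus strand), the JUN subunit known for steady rather than inducible expression, had 80.1 and 99.6 CPM in Kedah-Kelantan, 80.5 and 94.7 CPM in Brangus, and 78.5 and 109.6 CPM in Holstein Friesian. Its highest library was 1.40 times its lowest, the smallest range of the 10 genes. In the authors' table JUND overlaps IQCN on the same strand, so the split of reads between the 2 is uncertain, and no other member overlaps a listed gene.

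ATF3 (chromosome 16, 70924499 to 70937427, minus strand), a stress-induced partner of JUN proteins that often represses, had 5.12 and 5.46 CPM in Kedah-Kelantan, 8.09 and 7.30 CPM in Brangus, and 3.05 and 14.4 CPM in Holstein Friesian. Kedah-Kelantan was below Brangus without overlap, and Holstein Friesian again spanned both. EGR1 (chromosome 7, 49826725 to 49829568, plus strand), a zinc finger factor induced through serum response factor, had 9.62 and 10.1 CPM in Kedah-Kelantan, 3.43 and 3.27 CPM in Brangus, and 6.41 and 3.31 CPM in Holstein Friesian. Both Kedah-Kelantan libraries were the highest, and EGR1 was lower in Holstein Friesian replicate 2 than in replicate 1, unlike FOS and the JUN genes.

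DUSP1 (chromosome 20, 4540528 to 4543611, minus strand), the phosphatase that switches off p38 and JNK and a known glucocorticoid target, had 140.2 and 172 CPM in Kedah-Kelantan, 30.6 and 36.9 CPM in Brangus, and 14.3 and 249 CPM in Holstein Friesian. Kedah-Kelantan was above Brangus without overlap. The 2 Holstein Friesian libraries differed 17.3-fold, and 97.7% of all tested genes had a smaller ratio of replicate 2 to replicate 1. IER2 (chromosome 7, 12433854 to 12435630, minus strand) had 136 and 156 CPM in Kedah-Kelantan, 204 and 204 CPM in Brangus, and 229 and 180.0 CPM in Holstein Friesian. Kedah-Kelantan was the lowest breed without overlap, and the whole range was 1.68-fold.

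**Figure D3:**
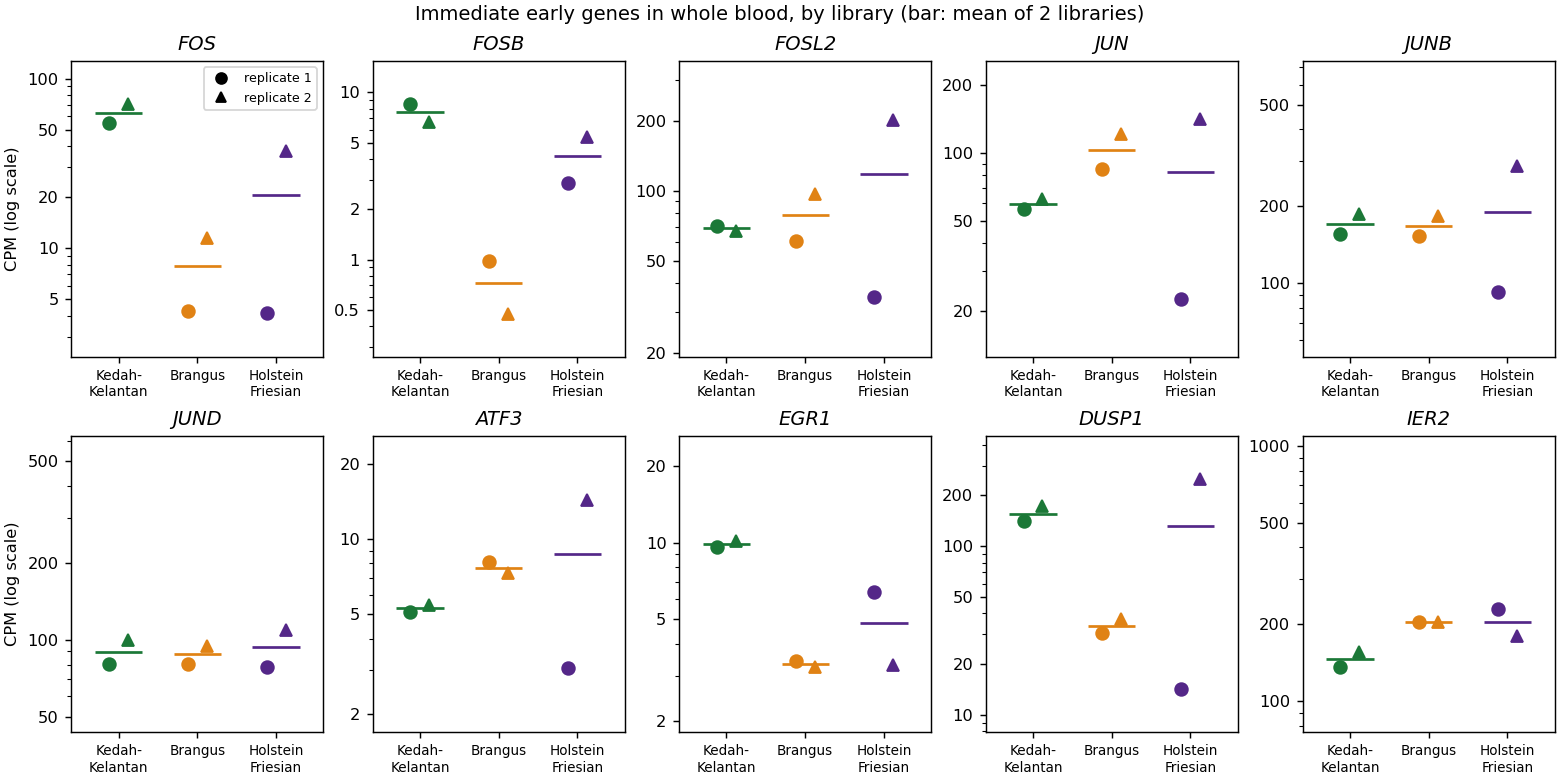
CPM of the 10 genes (log axes, each of its own range) in the 6 libraries, with circles for replicate 1, triangles for replicate 2 and a bar at the mean of the 2. FOS, FOSB, EGR1 and DUSP1 stand above Brangus in both Kedah-Kelantan libraries, and Holstein Friesian replicate 1 is the lowest library for 7 of the 10 genes.

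Holstein Friesian replicate 1 was the lowest of the 6 libraries for 7 of the 10 genes, and replicate 2 the highest for 6. Both held together for FOSL2, JUN, JUNB, JUND, ATF3 and DUSP1, that is 6 of 10, while 12.8% of all tested genes had this pattern. In replicate 2 against replicate 1, 6 genes were over 2-fold higher (FOS 8.90-fold, JUN 6.28-fold, FOSL2 5.78-fold, ATF3 4.62-fold, JUNB 3.10-fold and DUSP1), none was over 2-fold lower, and EGR1 was at 0.522 times. Of all tested genes, 19.6% were over 2-fold higher in replicate 2 and 13.1% over 2-fold lower. The marker sums given above for neutrophils and monocytes differed 8.47-fold and 8.73-fold in the same direction, and those for eosinophils, basophils and mast cells 38.3-fold. Their part in the difference was not tested. Within Kedah-Kelantan none of the 10 genes differed over 2-fold between replicates, where 1.45% of all genes were over 2-fold higher in replicate 2 and 2.04% lower. Within Brangus only FOS did, at 2.65-fold higher in replicate 2 (6.56% of all genes were higher and 7.37% lower).

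The 10 genes did not vary as one block across the libraries. As a description over 6 libraries that share the 2 divergent Holstein Friesian ones, FOSL2, JUN, JUNB and ATF3 followed each other, with Pearson correlations of log2 CPM between 0.88 and 0.96. FOS and DUSP1 were at 0.93, and DUSP1 was also at 0.81 with JUNB. FOSB was about as close to EGR1 (0.72) as to FOS (0.71) and DUSP1 (0.66). EGR1 ran against JUN (-0.62) and ATF3 (-0.66), and IER2 ran against FOS (-0.89) and DUSP1 (-0.80). DUSP1 was the gene closest to the mean of the other 9 (0.99), while EGR1 was at 0.10 and IER2 at -0.79. Outside the 10 genes, those close to their mean profile included MFSD14A (0.997), CORO7 (0.997), GCSAML (0.996) and PIK3R5 (0.995). They were picked for high correlation among 8860 genes of at least 10 CPM over only 6 libraries. Such values can come from the search alone and test nothing. CORO7, which encodes a coronin, had 82.7 and 93.6 CPM in Kedah-Kelantan, 50.1 and 59.0 CPM in Brangus, and 38.2 and 112 CPM in Holstein Friesian. On the genome, 4 of the 10 genes (JUNB, JUND, EGR1 and IER2) lie on chromosome 7, and IER2 lies 300443 bases from JUNB, yet the 2 had a correlation of -0.39.

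In Kedah-Kelantan against Brangus, with all 6 libraries in the fit, none of the 10 genes passed edgeR's quasi-likelihood test at an adjusted p under 0.05, and 0 of 13455 genes did (0% called). FOSB (log2 fold change 3.38, SE 0.61, adjusted p = 0.353), FOS (2.99, SE 1.10, 0.413) and EGR1 (1.56, SE 0.43, 0.359) had an unadjusted p under 0.05, that is 3 of 10 genes, against 11.6% of all genes. DUSP1 was at 2.21 (SE 1.19, adjusted p = 0.518), JUN at -0.80 (SE 0.81, 0.732), ATF3 at -0.54 (SE 0.71, 0.801) and IER2 at -0.48 (SE 0.19, 0.429). FOSL2, JUNB and JUND were between -0.19 and 0.04. DESeq2 called FOSB (adjusted p = 2.38e-05) and EGR1 (0.0231), where it called 4.93% of all genes. The median over the 10 genes was 0.03 and that over all genes 0.02.

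The spread in that fit is shared with the divergent Holstein Friesian libraries. When edgeR was fitted to the Kedah-Kelantan and Brangus libraries alone, 6 of the 10 genes passed and 19.3% of 13147 genes did. In that fit FOSB was 10.4-fold higher in Kedah-Kelantan (log2 3.38, SE 0.46, edgeR adjusted p = 0.00364), FOS 7.95-fold (2.99, SE 0.41, adjusted p = 0.00437), DUSP1 4.64-fold (2.21, SE 0.15, adjusted p = 0.000289) and EGR1 2.96-fold (1.57, SE 0.28, adjusted p = 0.00982). These are 4 genes on the higher side, where 9.09% of all genes were called. JUN fell to 0.576 times its Brangus level (log2 -0.80, SE 0.18, edgeR adjusted p = 0.0224) and IER2 to 0.720 times (-0.47, SE 0.11, adjusted p = 0.0251), where 10.2% of all genes were called lower. FOSL2 (-0.19, SE 0.20), JUNB (0.03, SE 0.14), JUND (0.04, SE 0.15) and ATF3 (-0.53, SE 0.27) did not pass, with edgeR adjusted p of 0.554, 0.889, 0.867 and 0.21. The same 6 genes passed in the same directions when either Holstein Friesian library was left out of the full fit. Of all genes, 8.35% were then called higher and 9.09% lower without replicate 1, and 7.92% and 9.62% without replicate 2. None of the 10 passed when any Kedah-Kelantan or Brangus library was left out of the full fit. Both divergent Holstein Friesian libraries stayed in those fits, so they cannot test the calls made with 2 breeds. The fits without either Holstein Friesian library cannot test these calls either. There Holstein Friesian added nothing to the estimate of the spread, which came from the same Kedah-Kelantan and Brangus libraries as with 2 breeds. The same calls were therefore bound to return and are no separate support. No fit of the 2 breeds alone was run with a library left out.

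Libraries of these 2 breeds did not overlap for 4 genes on the higher side (FOS, FOSB, EGR1 and DUSP1; 33.5% of all genes) and for 3 on the lower side (JUN, ATF3 and IER2; 30.7%). Cell marker sums differed between the 2 breeds as well, except for T cells. T cell markers were at 2156 and 2381 CPM in Kedah-Kelantan, against 2172 and 2209 CPM in Brangus, which overlap. The eosinophil, basophil and mast cell sum was 440 and 453 CPM in Kedah-Kelantan, against 38.8 and 36.5 CPM in Brangus, where GATA2 was at 0 in both libraries. HDC was at 0 in all libraries of the study but Kedah-Kelantan replicate 2. Monocyte markers were at 1666 and 1884 CPM in Kedah-Kelantan, against 1354 and 1379 CPM in Brangus, and neutrophil markers at 2650 and 2846 CPM, against 3030 and 4663 CPM. NK and cytotoxic markers were at 778 and 865 CPM in Kedah-Kelantan, against 316 and 415 CPM in Brangus (10 genes, none at 0). Platelet markers were at 298 and 345 CPM, against 1280 and 1407 CPM in Brangus (8 genes), and erythroid markers at 163 and 203 CPM, against 451 and 648 CPM. Gamma delta T cell markers were at 97.2 and 108.8 CPM, against 117 and 144 CPM (6 genes), and B and plasma cell markers at 2128 and 2283 CPM, against 3373 and 2901 CPM. Their part in the result was not tested.

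**Figure D4:**
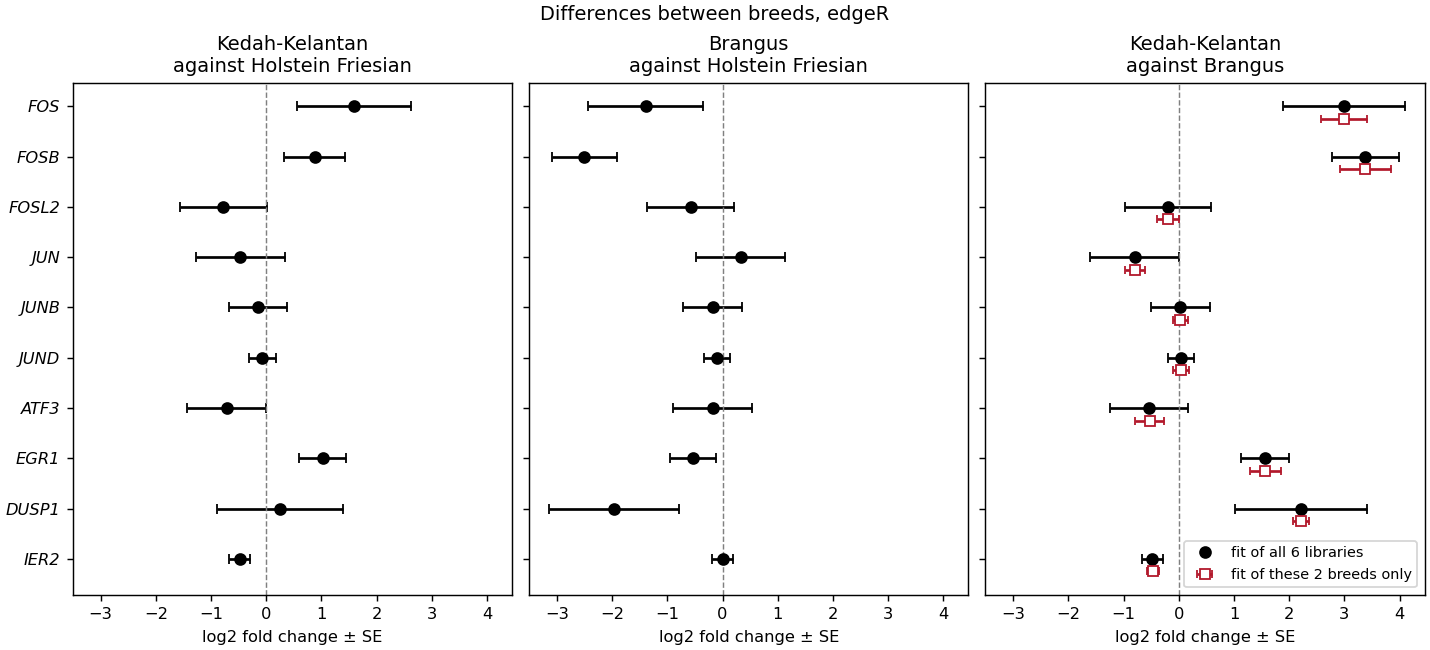
Log2 fold change of each gene with its SE in the 3 breed comparisons (edgeR, all 6 libraries, black circles), and in the fit of Kedah-Kelantan and Brangus alone (open red squares). FOSB and FOS against Brangus lie at 3.38 and 2.99 in both fits, with the SE of FOS at 1.10 in the fit of all libraries and 0.41 in the fit of 2 breeds.

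In Kedah-Kelantan against Holstein Friesian, the comparison of the breeds labelled heat-tolerant and heat-vulnerable, none of the 10 genes passed and 0.00743% of all genes did. At an unadjusted p under 0.05 there was 1 gene, IER2 (log2 fold change -0.48, SE 0.19, edgeR adjusted p = 0.995), against 4.04% of all genes, and DESeq2 called none of the 10 and 1.01% of all genes. EGR1 was at 1.02 (SE 0.42, adjusted p = 0.995), FOS at 1.59 (SE 1.04) and FOSB at 0.88 (SE 0.55). FOS, FOSB and EGR1 did not overlap on the higher side (18.1% of all genes) and IER2 did not on the lower side (12.6%). FOSL2 (-0.78, SE 0.79), ATF3 (-0.72, SE 0.71), JUN (-0.47, SE 0.81), JUNB (-0.15, SE 0.53), JUND (-0.07, SE 0.24) and DUSP1 (0.25, SE 1.14) overlapped. The median over the 10 genes was -0.11, and -0.03 over all genes.

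The direction of 6 genes turned with the choice of Holstein Friesian library. Without Holstein Friesian replicate 1, in a fit where the remaining library is assumed to vary like the other groups, 5 genes were called lower in Kedah-Kelantan (10.7% of all genes), namely FOSL2 at -1.55, ATF3 at -1.44, JUN at -1.26, JUNB at -0.75 and DUSP1 at -0.67. EGR1 was called higher there (1.58, SE 0.37, edgeR adjusted p = 0.0229; 6.80% of all genes). Without Holstein Friesian replicate 2, 4 genes were called higher (6.56% of all genes), namely FOS at 3.88, DUSP1 at 3.40, JUN at 1.35 and JUNB at 0.84, and IER2 was called lower (-0.69, SE 0.14, edgeR adjusted p = 0.0155; 5.35% of all genes). JUN, JUNB and DUSP1 were thus called in opposite directions, and FOSL2, ATF3 and JUND also turned, at 0.94, 0.75 and 0.15 without replicate 2, where none of the 3 was called. JUND was at -0.29 without replicate 1, also without a call. FOS (0.75 to 3.88), FOSB (0.50 to 1.36) and EGR1 (0.58 to 1.58) were higher in Kedah-Kelantan in both fits, and IER2 lower (-0.69 to -0.30).

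**Figure D5:**
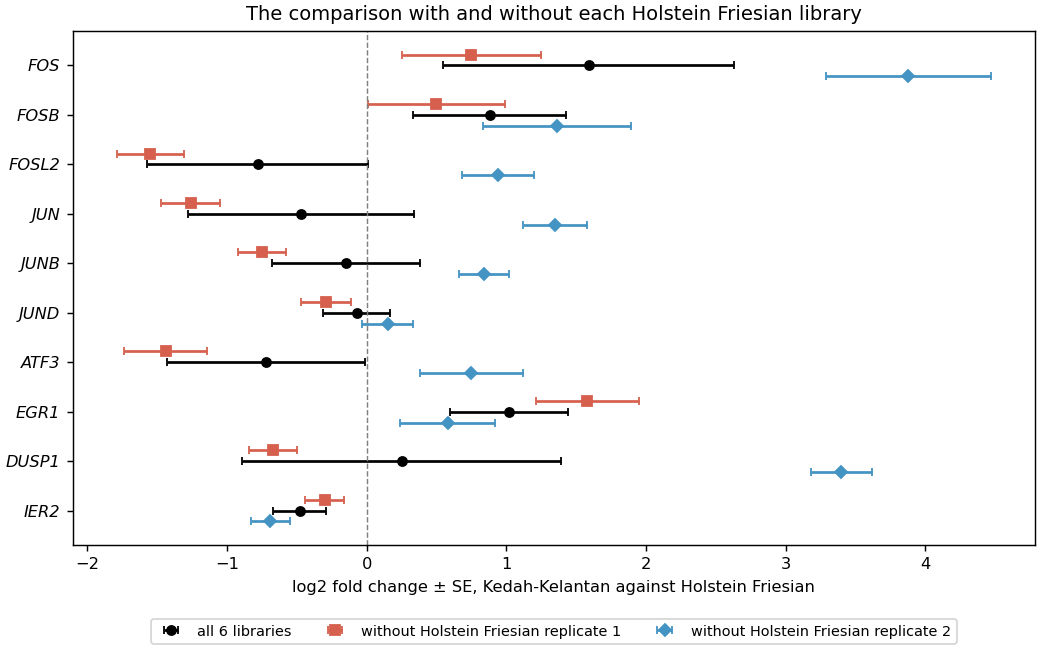
Log2 fold change of Kedah-Kelantan against Holstein Friesian with its SE for each gene, from all 6 libraries (black circles), without Holstein Friesian replicate 1 (red squares) and without replicate 2 (blue diamonds). DUSP1 lies at -0.67 without replicate 1 and at 3.40 without replicate 2, while FOSB, EGR1, FOS and IER2 keep their side of 0.

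In Brangus against Holstein Friesian none of the 10 genes passed edgeR's test and 0.00743% of all genes did. FOSB alone had an unadjusted p under 0.05 (log2 fold change -2.50, SE 0.59, adjusted p = 0.641), against 7.62% of all genes, and DESeq2 called it (-2.54, adjusted p = 0.0073) where it called 2.28% of all genes. FOSB was also the 1 gene of the 10 whose libraries did not overlap, on the lower side (15.9% of all genes). The fold change was -1.96 (SE 1.18) for DUSP1, -1.39 (SE 1.04) for FOS, -0.58 (SE 0.79) for FOSL2, -0.54 (SE 0.42) for EGR1 and 0.33 (SE 0.81) for JUN. JUNB, ATF3, JUND and IER2 were between -0.18 and 0.00. The median was -0.36, and -0.03 over all genes. Without Holstein Friesian replicate 1, FOSB (-2.89), DUSP1 (-2.89), FOS (-2.25), FOSL2 (-1.36) and JUNB (-0.78) were called lower in Brangus, where 16.8% of all genes were (31.3% in either direction). Without replicate 2, JUN (2.16), DUSP1 (1.20), FOSL2 (1.14) and JUNB (0.82) were called higher, where 4.36% of all genes were, none was called lower (1.7% of all genes; 6.06% in either direction), and FOSB was at -2.02 without a call. The comparisons share libraries and are not independent of one another. The test of any breed difference called none of the 10 genes and 0% of all genes. FOSB and EGR1 had the smallest edgeR p of the 10 (adjusted p = 0.56 and 0.567), and only these had an unadjusted p under 0.05, against 8.23% of all genes. DESeq2 called 1 of the 10 and 4.65% of all genes.

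Other genes of the same pathway were described by 5 lists, and none of their tested members passed edgeR's test of all 6 libraries in any comparison. The genes named here had the smallest p over any breed difference in their list, so separation between breeds follows in part from that choice. Between Kedah-Kelantan and Brangus, 33.5% of all genes were higher and 30.7% lower without overlap. AP-1 dimer partners (23 of 24 tested) had a median log2 fold change of -0.39 in Kedah-Kelantan against Holstein Friesian, -0.52 in Brangus against Holstein Friesian and 0.05 in Kedah-Kelantan against Brangus. In the same order 5, 6 and 13 of the 23 were higher and 18, 17 and 10 lower. ATF4, the factor of the integrated stress response, had 335 and 353 CPM in Kedah-Kelantan, 499 and 559 CPM in Brangus, and 360.3 and 362 CPM in Holstein Friesian. Brangus was the highest breed without overlap (log2 fold change -0.62, SE 0.17, edgeR adjusted p = 0.353, Kedah-Kelantan against Brangus). DESeq2 called this difference (adjusted p = 0.00525), where it called 4.93% of all genes. Against Brangus, Kedah-Kelantan was at 0.65 (SE 0.26) for ATF7, a JUN partner, and at 0.95 (SE 0.59) for the bZIP factor MAF.

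Of 40 other early genes, 37 were tested, with medians of -0.17, -0.21 and 0.13 in the 3 comparisons in the same order, and 13, 10 and 20 genes higher. KLF10, a TGF-beta-induced early gene, had 40.7 and 46.8 CPM in Kedah-Kelantan, 62.7 and 75.1 CPM in Brangus, and 83.2 and 60.1 CPM in Holstein Friesian. Its Kedah-Kelantan libraries were the lowest of the 6 (log2 fold change -0.71, SE 0.23, edgeR adjusted p = 0.995, against Holstein Friesian). PIM3, a survival kinase, was at 0.61 (SE 0.19, adjusted p = 0.995 by edgeR) in the same comparison. SRF, the serum response factor that binds the promoters of FOS and EGR1, had 39.4 and 37.6 CPM in Kedah-Kelantan, 27.2 and 21.1 CPM in Brangus, and 31.8 and 37.8 CPM in Holstein Friesian. Brangus was the lowest breed without overlap. In Kedah-Kelantan against Brangus, where 33.5% of all genes were higher without overlap, SRF was at 0.67 (SE 0.21, edgeR adjusted p = 0.38). In Holstein Friesian replicate 2 against replicate 1, 17 of the 37 genes were over 2-fold higher and 2 over 2-fold lower.

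Upstream kinases and factors (26 of 27 tested) had medians of -0.13, -0.32 and 0.23, with 8, 4 and 18 genes higher. MRTFB, a partner of SRF, had 15.9 and 12.7 CPM in Kedah-Kelantan, 8.01 and 7.22 CPM in Brangus, and 11.9 and 16.6 CPM in Holstein Friesian. Both Brangus libraries were the lowest (0.91 on the log2 scale for Kedah-Kelantan against Brangus, SE 0.29, edgeR adjusted p = 0.385). RPS6KA3, the kinase RSK2 downstream of ERK, was at -0.63 (SE 0.16, edgeR adjusted p = 0.645) for Brangus against Holstein Friesian. There DESeq2 gave it an adjusted p of 0.0234 and called 2.28% of all genes. Only 1 of these 26 genes was over 2-fold higher in Holstein Friesian replicate 2 than in replicate 1, and 2 were over 2-fold lower. Among the other MAP kinase phosphatases (9 of 10 tested, with medians of -0.24, -0.33 and 0.03 and 2, 3 and 5 genes higher) DUSP6, which acts on ERK, had 59.6 and 59.4 CPM in Kedah-Kelantan, 26.1 and 17.8 CPM in Brangus, and 12.6 and 153 CPM in Holstein Friesian. As for DUSP1, Kedah-Kelantan was above Brangus without overlap and the Holstein Friesian libraries were the lowest and the highest. DUSP4 stayed at or under 2.66 CPM in all libraries, and DUSP22 was at -0.88 (SE 0.41) in Kedah-Kelantan against Brangus.

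Textbook AP-1 targets (13 of 16 tested) had medians of -0.71, -0.18 and -0.28, with 2, 6 and 5 genes higher and 11, 7 and 8 lower. ICAM1, an adhesion molecule of activated leukocytes and endothelium, had 4.63 and 6.05 CPM in Kedah-Kelantan, 15.5 and 24.1 CPM in Brangus, and 10.1 and 9.62 CPM in Holstein Friesian. Its 3 breeds did not overlap, and Brangus was highest. The share of all genes with 3 separate breeds was not counted, and 30.7% were lower in Kedah-Kelantan than in Brangus without overlap. The log2 fold change of ICAM1 was -1.89 (SE 0.33, edgeR adjusted p = 0.351) for Kedah-Kelantan against Brangus. DESeq2 called this difference (adjusted p = 0.000121), where it called 4.93% of all genes. The cytokine gene TNF was at -0.76 (SE 0.29) and TIMP1, an inhibitor of matrix metalloproteinases, at -0.74 (SE 0.31) in the same comparison. In Holstein Friesian, 10 of the 13 target genes were over 2-fold higher in replicate 2 than in replicate 1 and none was over 2-fold lower, where 19.6% of all genes were higher and 13.1% lower. Of the AP-1 dimer partners 13 of 23 were higher and 1 lower, and of the MAP kinase phosphatases 6 of 9 were higher and 1 lower.

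In the edgeR fit of Kedah-Kelantan and Brangus alone, 11 of the 14 pathway genes named above passed, against 19.3% of all genes. The 14 were picked by their p over the 3 breeds, so this count describes them and is no test of the lists. ATF7 (adjusted p = 0.0117), MAF (0.0251), SRF (0.0295), MRTFB (0.0344) and DUSP6 (0.00316) were higher in Kedah-Kelantan. ATF4 (adjusted p = 0.00982), KLF10 (0.0225), DUSP22 (0.0499), ICAM1 (0.00581), TNF (0.029) and TIMP1 (0.0324) were lower. PIM3, RPS6KA3 and DUSP4 did not pass.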

How the data were processed

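Whole-blood RNA of 6 libraries, 2 per breed, was analysed from 2 deposited tables. Per the file headers, 1 table holds raw read counts, and the deposited FPKM values are the authors' own. Count divided by FPKM deviated by at most 0.05% from proportionality to the library total over 4306 genes, so FPKM adds no depth information. FastQC 0.11.9, Trimmomatic 0.39, HISAT2 2.2.1, featureCounts 2.0.1, DESeq2 1.38.0 and the build ARS-UCD1.2 are named in the submitters' processing notes. The notes give no roles, settings or strandedness.

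The deposited counts went into edgeR 4.0.16 under R 4.3.3 (TMM, filterByExpr, robust quasi-likelihood fit with breed as the only term over 6 libraries, 3 residual degrees of freedom, Benjamini-Hochberg over 13455 genes, adjusted p under 0.05 called). The SE was derived from the log2 fold change and its F statistic. DESeq2 1.42.0, other filters and scalings, and fits without each library were alternatives. Groups of 2 allow no useful exact permutation test. P-values measure only the spread between these libraries, and counting error is the lower limit of their precision. The scripts were tested on simulated data, with 1 spread per gene shared by all breeds. Of 100 genes changed 4-fold, 36 were called for Kedah-Kelantan and 25 for Brangus against Holstein Friesian, and 45 for Kedah-Kelantan against Brangus. In the same order 85, 76 and 90 of 100 genes changed 16-fold were called, and 10, 8 and 12 unchanged genes. A gene that was not called may therefore still differ between breeds.

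The members and gene lists were chosen with earlier results of these data known. All 10 members were named, with the 3 genes of smallest p over any breed difference from each list and the 5 genes of most similar profile, of which 1 is not reported here. EGR2, EGR3, BATF, BATF2, BATF3 and FOSL1 were named after their values were seen. Chromosome names were translated from the sequence identifiers of the authors' table, and for all 10 members they are the same in a RefSeq gene table of another assembly, which was used for nothing else. No sequences were used here.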

Additional observations from a re-analysis of the deposited data

How the results depend on the processing

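None of the 10 genes was called in the fit of all libraries, where all 6 libraries share 1 estimate of the spread. With DESeq2 the calls among the 10 were 2 for Kedah-Kelantan against Brangus, 1 for Brangus against Holstein Friesian and 1 for any breed difference, and with the 2 breeds alone they were 6 for Kedah-Kelantan against Brangus. Leaving out 1 library gave 0 to 6 calls for Kedah-Kelantan and 0 to 5 for Brangus, both against Holstein Friesian, 0 to 6 for Kedah-Kelantan against Brangus and 0 to 9 for any breed difference. The values above 0 came only without a Holstein Friesian library, where that breed added nothing to the estimate of the spread. The medians over the 10 genes ranged from -0.49 to 0.89, from -0.85 to 0.86 and from -0.11 to 0.18 in the same order. Of all genes, DESeq2 called 131, 307 and 663, and 625 for any breed difference. The 1 call against Holstein Friesian in each comparison was 0 at a mean count of at least 50, with 2 breeds in the fit and under the replicate block, and for Brangus also with DESeq2 size factors. With 2 breeds, 2537 genes were called for Kedah-Kelantan against Brangus, and with no low-count filter 1 for any breed difference. Without 1 library these counts ranged from 0 to 2464, 0 to 4395, 0 to 2458 and 0 to 4783. The replicate numbers do not pair the animals: replicate differences correlated at 0, 0.01 and 0.05 between breeds. The replicate block left 0 of the 10 genes called and turned ATF3 to 0.07 (Brangus against Holstein Friesian) and JUNB to 0.01 (Kedah-Kelantan against Holstein Friesian). MRTFB, near 0 in Kedah-Kelantan against Holstein Friesian, was -0.03 with DESeq2 size factors, with no filter and with DESeq2, -0.04 at a mean count of at least 50 and -0.01 with 2 breeds.

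Without 1 library, these log2 fold changes turned sign.
In Kedah-Kelantan against Holstein Friesian the ranges were ATF3 -1.44 to 0.75, ATF7 -0.26 to 0.40, DUSP1 -0.67 to 3.40, DUSP22 -0.39 to 0.59, DUSP6 -1.36 to 2.2, FOSL2 -1.55 to 0.94, JUN -1.26 to 1.35, JUNB -0.75 to 0.84, JUND -0.29 to 0.15, MAF -1.21 to 0.56 and MRTFB -0.21 to 0.22.
In Brangus against Holstein Friesian the ranges were ATF3 -0.91 to 1.29, DUSP1 -2.89 to 1.20, DUSP6 -2.81 to 0.76, EGR1 -0.98 to 0.01, FOS -2.31 to 0.89, FOSL2 -1.36 to 1.14, IER2 -0.20 to 0.17, JUN -0.47 to 2.16, JUNB -0.78 to 0.82, JUND -0.33 to 0.12, KLF10 -0.31 to 0.19 and TNF -0.13 to 0.53.
In Kedah-Kelantan against Brangus the ranges were FOSL2 -0.50 to 0.18, JUNB -0.11 to 0.17 and JUND -0.12 to 0.19.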

Other observations

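EGR genes differed from each other in the 2 Holstein Friesian libraries. EGR1 had 3.31 CPM in replicate 2 and 6.41 CPM in replicate 1, and EGR3, a family member known from activated lymphocytes, had 0.570 and 5.2 CPM in the same order. EGR2, known in myeloid cells and lymphocytes, had 24.5 CPM in replicate 2 and 2.48 CPM in replicate 1. EGR2 was at 4.22 and 3.61 CPM in Kedah-Kelantan and at 1.93 and 2.49 CPM in Brangus. BATF, a lymphocyte partner of JUN proteins, had 62.1 and 81.3 CPM in Kedah-Kelantan, 138 and 109.6 CPM in Brangus, and 190.0 and 24.9 CPM in Holstein Friesian, replicate 1 first. EGR1, EGR3 and BATF were thus lower, and EGR2 higher, in replicate 2. BATF2 and BATF3 were also higher there, at 19.5 and 10.7 CPM, against 0.101 and 3.255 CPM in replicate 1. The B and plasma cell marker sum was 244 CPM in replicate 2, against 3329 CPM in replicate 1. Neutrophil markers were at 8505 CPM against 1004 CPM, and monocyte markers at 7549 CPM against 865 CPM. T cell markers were at 2713 CPM against 2554 CPM. The part of the marker sums in these differences was not tested.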
